A study of Mus musculus with 8 samples.

Results

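Chemokine ligands are small secreted or membrane-held proteins that guide leukocytes through tissues. The list examined here held 32 mouse ligand genes, chosen by gene symbol, of 27179 genes counted in whole uteri of 10-day-old mice (PD10). *Cxcl9*, *Cxcl10* and *Cxcl15* were kept out of the list and are quoted only beside it. Of the 32 ligands, 24 passed the filter on low counts and were among the 16658 genes tested, and 8 did not pass. The controls (Ctrl, 4 libraries) carried floxed *Ezh2* alleles on both chromosomes (Ezh2 f/f), and the conditional knockouts (cKO, 4 libraries) carried these alleles together with *Amhr2*-Cre (Ezh2 f/f; Acre), both on a C57BL/6/129SvEv background. *Ezh2* encodes the methyltransferase of Polycomb repressive complex 2, which places a repressive mark on histone H3. *Amhr2*-Cre acts in mesenchyme of the Müllerian duct and its derivatives, stroma and smooth muscle, and is not known to act in uterine epithelium or leukocytes.

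Chemokines are sorted by the spacing of the first cysteines of the mature protein, and the classes bind different sets of G protein-coupled receptors. CC ligands such as *Ccl2* draw monocytes, CXC ligands with a glutamate-leucine-arginine motif such as *Cxcl5* draw neutrophils through *Cxcr2*, and *Xcl1*, of the small C class, is made by activated NK and T cells and read by *Xcr1* on cross-presenting dendritic cells. *Cxcl12* is the stromal ligand of *Cxcr4*. In the uterus, chemokines place the NK cells, macrophages and eosinophils that populate the endometrium. The stretches of coding sequence below hold the class-defining cysteines in each of the 3 ligands that differed between the genotypes and, for the remaining class, in *Cx3cl1*. They are the sense strand of the GENCODE transcripts, 5′ to 3′, with the codons of these cysteines in capitals and codons counted from the start codon.
*Xcl1*, C class, codons 26 to 43: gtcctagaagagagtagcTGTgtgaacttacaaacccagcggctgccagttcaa
*Ccl5*, CC class, codons 27 to 44: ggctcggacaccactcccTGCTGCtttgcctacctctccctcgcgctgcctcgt
*Cxcl5*, CXC class, codons 47 to 64: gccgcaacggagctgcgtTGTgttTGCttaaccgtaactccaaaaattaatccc
*Cx3cl1*, CX3C class, codons 26 to 43: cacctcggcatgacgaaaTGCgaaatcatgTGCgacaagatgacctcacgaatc
The cysteine codons touch in *Ccl5*, are parted by 1 codon in *Cxcl5* and by 3 in *Cx3cl1*, and *Xcl1* has a lone cysteine at that place. *Xcl1* has 114 codons and 4 cysteine codons in all, *Ccl5* 91 and 5, *Cxcl5* 132 and 4, and the membrane-anchored *Cx3cl1* 395 and 8.

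The libraries held 25287141 to 36685807 counted reads, and levels are given as TMM-normalized CPM (counts per 1000000 counted reads, scaled between libraries). On that scale 3 reads stood for 0.0823 to 0.116 CPM. *Ezh2* itself was 45.0 ± 8.70 CPM (SD, n = 4) in Ctrl and 36.8 ± 4.41 CPM in cKO. The groups overlapped, and its log2 fold change of -0.29 did not pass edgeR's quasi-likelihood test (adjusted p = 0.247). Per the paper, Cre targets only some exons of *Ezh2*, so reads from its other exons can still be counted. The paper reported lower *Ezh2* mRNA in cKO uteri by qRT-PCR, and weaker EZH2 staining in stromal but not epithelial cells. Whole uterus holds both. The markers of uterine epithelium (7 genes), stroma (10) and smooth muscle (6) all passed the filter in these uteri. In edgeR, 4 of the 10 stroma markers (40%) differed at an adjusted p under 0.05, where 5.34% of all genes tested did. *Col3a1* was higher and *Amhr2*, *Hoxa10* and *Hoxa11* were lower in cKO, and DESeq2 called 5. None of the epithelium or smooth muscle markers differed in edgeR (2 of each list at an unadjusted p under 0.05, 1 of each in DESeq2). Only the cKO mice carried *Amhr2*-Cre, so an effect of that allele on *Amhr2* reads cannot be told apart from one of *Ezh2* deletion. The part of these stroma marker differences in the ligand results was not tested. The cKO libraries were not alike. The summed level of 8 fat cell markers was 90.9, 211 and 95.5 CPM in cKO replicates 1, 2 and 3, against 5.46 CPM in cKO replicate 4 and 3.38 to 5.14 CPM in Ctrl. Over all genes, too, cKO replicate 4 was nearer to Ctrl replicates 4 and 3 (chi-square per gene between the counts of a pair of libraries 12.5 and 14.9, larger where they are less alike) than to cKO replicates 1, 2 and 3 (21.2, 21.0 and 18.9). For that reason each ligand that passed the test is also given below with cKO replicate 4 as the only cKO library. The labels number the libraries as separate samples and do not say whether each came from 1 animal, so p-values measure the spread between these libraries.

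Fold changes compare cKO with Ctrl, and a gene was counted as higher or lower where its Benjamini-Hochberg adjusted p from edgeR, taken over all genes tested, was under 0.05. *Xcl1* and *Ccl5* were lower in cKO uteri and *Cxcl5* was higher, each by more than 2-fold. These were 3 of the 24 tested ligands, or 12.5%. Over all 16658 genes 5.34% passed the same threshold, 2.62% higher and 2.71% lower, and 1.3% passed it together with a 2-fold change. The other 21 tested ligands did not pass, with log2 fold changes from -1.59 to 0.95 and adjusted p from 0.0527 to 0.975. Signs were mixed, 14 positive and 10 negative, and the median log2 fold change was 0.04 beside 0.00 over all genes tested. In 8 of the 24 ligands (33.3%) the libraries of the groups did not overlap, beside 12.3% of all genes tested. Since the list was assembled with results of these data known, its shares are a description.

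**Figure D1:**
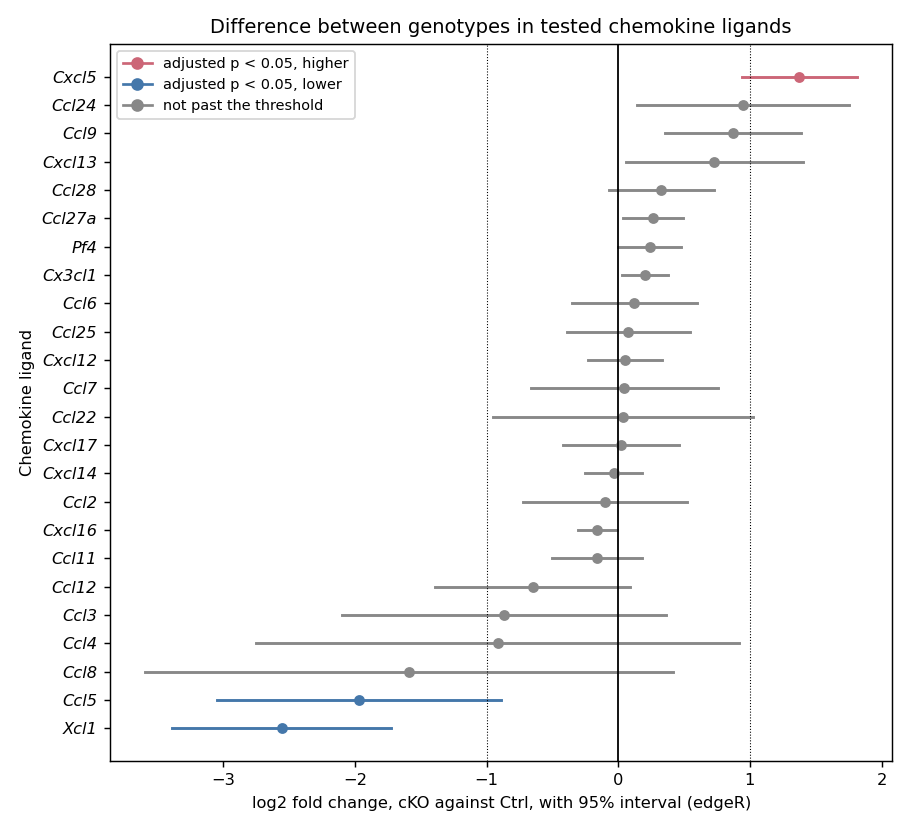
Log2 fold change of the 24 tested chemokine ligands, cKO against Ctrl (n = 4 each), with 95% intervals from the edgeR fit. Dotted lines mark a 2-fold change in each direction. *Xcl1* at -2.56, *Ccl5* at -1.97 and *Cxcl5* at 1.38 passed an adjusted p of 0.05, and the widest intervals among the rest belong to *Ccl8* and *Ccl4*.

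*Xcl1* (lymphotactin; chr1:164931644-164935522, GRCm38) had the largest fold change of the tested ligands. Its level was 1.20, 1.51, 1.57 and 0.906 CPM in Ctrl replicates 1 to 4 and 0.155, 0.201, 0.0924 and 0.420 CPM in cKO replicates 1 to 4. Every cKO library lay below every Ctrl library. The reads behind these values numbered 33 to 44 in Ctrl and 3 to 12 in cKO. The mean was 1.30 ± 0.306 CPM (SD, n = 4) in Ctrl and 0.217 ± 0.143 CPM in cKO, a log2 fold change of -2.56 (SE 0.38, 95% interval -3.39 to -1.72, adjusted p = 0.00205 by edgeR), or 5.88-fold lower. An exact two-sided permutation test on log2(CPM + 0.1) gave p = 0.0286, the smallest value that the 70 arrangements of 4 against 4 libraries can give. In bulk tissue, fewer cells of a type and less RNA per cell cannot be told apart. The call stood without any single library, with adjusted p from 0.000757 to 0.0109, but was lost with the fat marker score as a covariate (log2 fold change -1.91, adjusted p = 0.172). The highest cKO value belonged to replicate 4, the cKO library without raised fat markers, and with it as the only cKO library the log2 fold change was -1.60 (adjusted p = 0.385).

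*Ccl5* (RANTES; chr11:83525778-83530518) encodes a ligand of *Ccr1* and *Ccr3*, among others, that T and NK cells release. It was measured at 2.43, 1.93, 0.642 and 0.604 CPM in Ctrl and at 0.350, 0.502, 0.277 and 0.280 CPM in cKO. Ctrl replicates 1 and 2 stood well above the rest, while replicates 3 and 4, with 18 and 22 reads, lay just above the highest cKO library, with 15. The groups did not overlap, and the log2 fold change was -1.97 (SE 0.49, 95% interval -3.05 to -0.89, adjusted p = 0.0408 by edgeR), or 3.92-fold lower. The exact two-sided permutation p was 0.0286. This call was less firm than that of *Xcl1*. It was lost in 6 of the 8 fits that left out 1 library, all but those without Ctrl replicate 3 or 4, with adjusted p from 0.0131 to 0.119 over the 8. In limma-voom the adjusted p was 0.101, and with the fat marker score as a covariate it was 0.381 (log2 fold change -2.46). With cKO replicate 4 as the only cKO library the log2 fold change was -2.29 (adjusted p = 0.772).

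Markers of NK cells, a source of both transcripts, moved in the same direction. Of 14 NK cell genes, 13 were tested, 10 were lower at an adjusted p under 0.05 and none was higher. That was 76.9% of those tested, beside 2.71% lower over all genes tested. The median log2 fold change was -2.03. The summed level of all 14 was 15.6 to 27.1 CPM in Ctrl and 4.41 to 7.46 CPM in cKO, and no member was at 0 in all libraries. *Il2rb*, the beta chain of the receptor for interleukin 2 and 15, was 6.59 ± 2.24 CPM (SD, n = 4) in Ctrl and 1.89 ± 0.286 CPM in cKO. *Gzma*, a serine protease of cytotoxic granules, was 2.59 and 0.520 CPM, and *Ncr1*, an activating receptor that defines NK and related innate cells, was 1.67 and 0.344 CPM. In cKO replicate 4, *Ncr1* was 0.175 CPM and the summed list 5.53 CPM. Of 7 tested T cell genes none passed in edgeR (2 had an unadjusted p under 0.05, and DESeq2 called 1), all 7 had negative log2 fold changes (median -0.34), and the summed levels were 13.0 to 19.5 CPM in Ctrl and 12.9 to 15.8 CPM in cKO. *Lck*, a kinase of T cell receptor signalling, made up much of that sum, at 9.90 ± 1.09 CPM (SD, n = 4) in Ctrl and 9.24 ± 0.884 CPM in cKO. *Cd3d*, a chain of the T cell receptor complex, had a log2 fold change of -1.46 (SE 0.42, adjusted p = 0.0642 in edgeR) without overlap between the groups. *Cd8a*, the coreceptor of cytotoxic T cells, was under the filter, with 29, 30, 5 and 1 reads in Ctrl and 3, 4, 10 and 2 in cKO, so that Ctrl replicates 1 and 2 stood apart as they did for *Ccl5*. The part of these cell markers in the *Xcl1* and *Ccl5* results was not tested.

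*Ccl3* and *Ccl4* encode the macrophage inflammatory proteins MIP-1α and MIP-1β, which the same cells and macrophages make. *Ccl3* was 0.352 ± 0.253 CPM (SD, n = 4) in Ctrl and 0.189 ± 0.0780 CPM in cKO, and *Ccl4* 0.307 ± 0.244 and 0.167 ± 0.186 CPM. Both had negative log2 fold changes, -0.87 and -0.92, with adjusted p of 0.405 and 0.563, and both were highest in Ctrl replicate 1. With 1 library left out the value ranged from -1.23 (without Ctrl replicate 4) to -0.26 (without Ctrl replicate 1) for *Ccl3*, and from -1.89 (without cKO replicate 1) to -0.30 (without Ctrl replicate 1) for *Ccl4*. The annotated spans of this gene pair overlap, and how reads there were assigned is not given in the sources used here. *Cxcl11*, an interferon-induced ligand of *Cxcr3*, had at most 3 reads in any library and was not tested. The other *Cxcr3* ligands, quoted after their values were seen, were *Cxcl9* at 1.02 CPM in Ctrl and 0.418 CPM in cKO (log2 fold change -1.26, adjusted p = 0.0526, no overlap) and *Cxcl10* at 1.69 and 1.10 CPM (-0.59, adjusted p = 0.365).

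**Figure D2:**
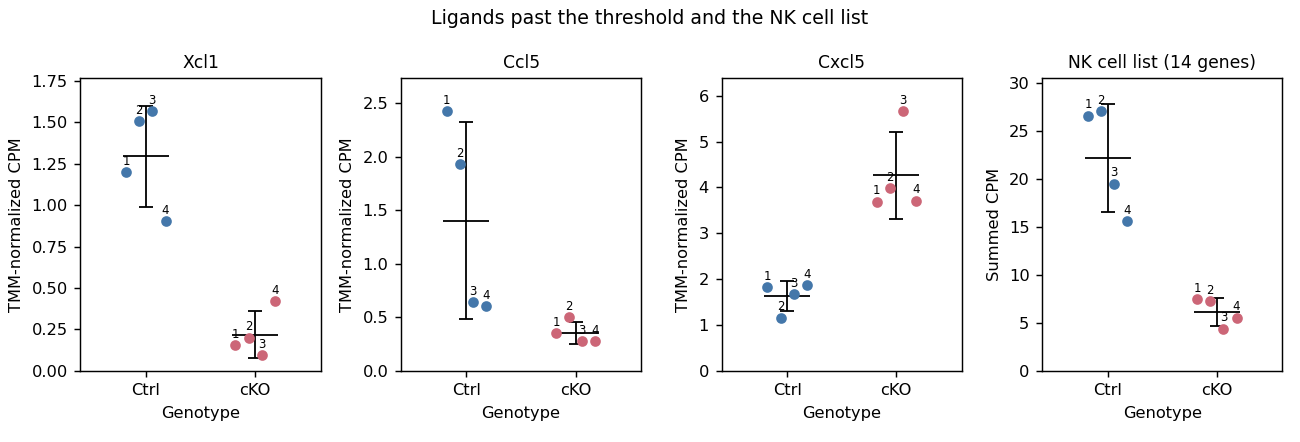
TMM-normalized CPM of *Xcl1*, *Ccl5* and *Cxcl5*, and the summed CPM of the 14 NK cell genes, in 4 Ctrl and 4 cKO libraries. Points carry the replicate number, long bars are means and error bars SD. *Xcl1*, *Ccl5* and the NK cell sum are lower in every cKO library than in any Ctrl library, *Cxcl5* is higher in every one, and Ctrl replicates 1 and 2 stand apart in *Ccl5*.

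*Cxcl5* (chr5:90759298-90761625) was the neutrophil-attracting ligand that rose, and the only member of its group of 5 that passed the filter. Its level was 1.83, 1.16, 1.68 and 1.87 CPM in Ctrl and 3.69, 3.98, 5.67 and 3.71 CPM in cKO. The groups were separated by a wide gap, and cKO replicate 3 was the highest. The mean was 1.63 ± 0.326 CPM (SD, n = 4) in Ctrl and 4.26 ± 0.946 CPM in cKO, a log2 fold change of 1.38 (SE 0.20, 95% interval 0.94 to 1.81, adjusted p = 0.00171 by edgeR), or 2.59-fold higher. The exact two-sided permutation p was again 0.0286. The call stood without any single library, cKO replicate 3 included (log2 fold change 1.20, adjusted p = 0.00579), but was lost with the fat marker score as a covariate (1.30, adjusted p = 0.0915). With cKO replicate 4 as the only cKO library the log2 fold change was 1.17 (adjusted p = 0.237).

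The remaining ligands of *Cxcr2* were at or near the limit of detection. *Cxcl1* (KC) had 2 to 5 reads in Ctrl and 4 to 8 in cKO, *Cxcl2* at most 4 and *Cxcl3* at most 4 in any library. *Ppbp*, the platelet basic protein gene next to *Cxcl5*, had 3, 5, 0 and 1 reads in Ctrl and 8, 2, 16 and 7 in cKO. At this depth a difference in these genes was not tested. *Cxcr2*, the receptor, was 0.327 ± 0.0794 CPM (SD, n = 4) in Ctrl and 0.546 ± 0.150 CPM in cKO. Its groups did not overlap, but the log2 fold change of 0.76 (95% interval 0.06 to 1.46) missed the threshold in edgeR (adjusted p = 0.201). Among 10 neutrophil markers, 8 were tested and none passed in edgeR (2 at an unadjusted p under 0.05, 1 in DESeq2), the median log2 fold change was 0.44, and the summed levels overlapped (22.9 to 30.7 CPM in Ctrl, 24.8 to 35.8 CPM in cKO).

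*Cxcl5* lies in a run of CXC ligand genes on chromosome 5 whose measured members did not move together. *Pf4* (platelet factor 4) lies 13.1 kb from *Cxcl5*, between the lower coordinates of their annotated spans, and was 6.86 ± 0.468 CPM (SD, n = 4) in Ctrl and 8.10 ± 0.800 CPM in cKO, a log2 fold change of 0.24 (adjusted p = 0.242). *Cxcl15* (lungkine), named here after its values were seen, lies 35.2 kb from it on the same measure and was 4.24 ± 1.50 CPM in Ctrl and 0.292 ± 0.212 CPM in cKO. Its log2 fold change was -3.83 (SE 0.42, adjusted p = 0.000385), opposite in sign to that of *Cxcl5*. On chromosome 11, *Ccl9* lies 47.1 kb from *Ccl5*, measured in the same way, and had the opposite sign (0.87), as had *Ccl6* (0.12). *Ccl3* and *Ccl4* in the same run, at -0.87 and -0.92, had the sign of *Ccl5*. None of these neighbours of *Ccl5* passed the test.

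**Figure D3:**
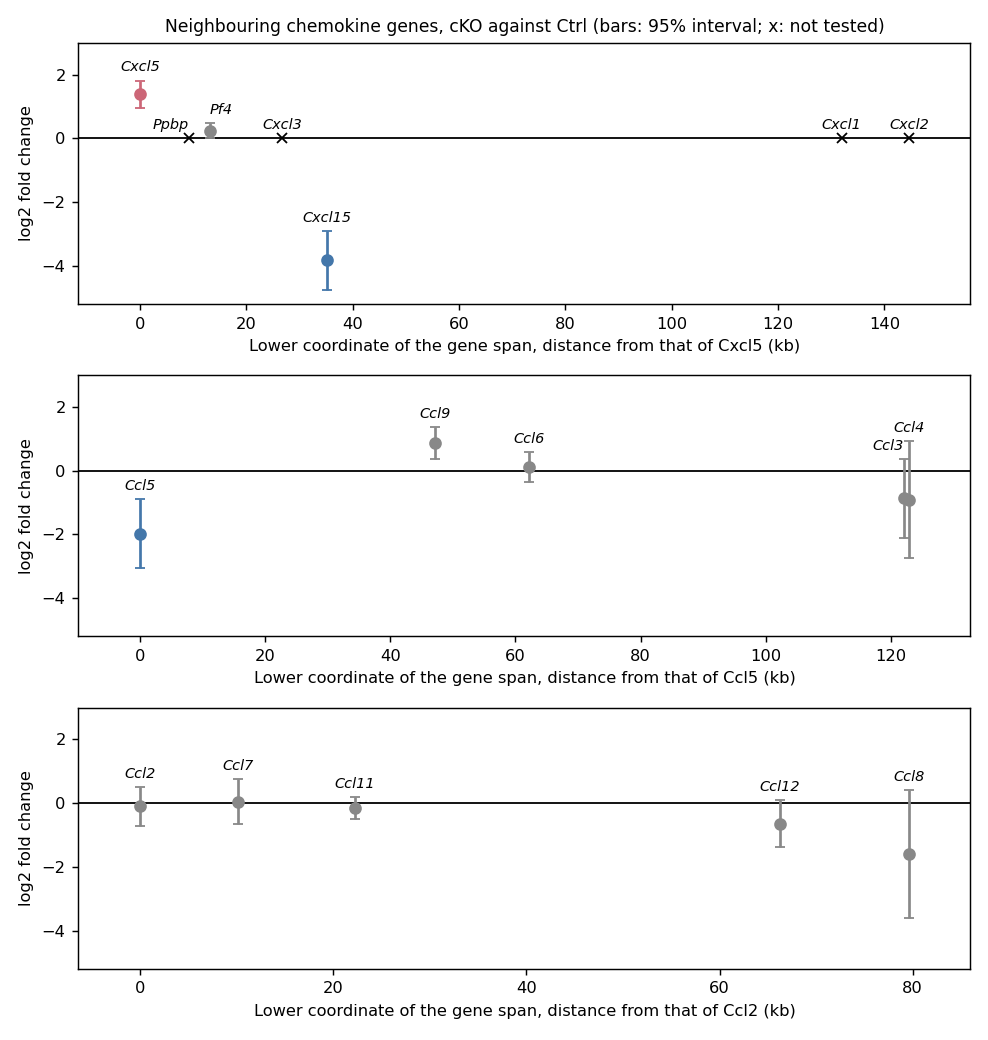
Log2 fold change (cKO against Ctrl, 95% intervals from the edgeR fit) of neighbouring ligand genes against the distance, in kb, of the lower coordinate of their span from that of *Cxcl5* (top), *Ccl5* (middle) and *Ccl2* (bottom). Crosses on the zero line mark genes that were not tested. *Cxcl5* at 1.38 and *Cxcl15* at -3.83 lie 35.2 kb apart, and the intervals of all 5 genes of the *Ccl2* run include 0.

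*Ccl9* was the uncalled ligand nearest the threshold. It is a macrophage-derived ligand of *Ccr1*, measured at 0.725, 1.24, 1.32 and 0.906 CPM in Ctrl and at 2.21, 2.18, 1.69 and 1.54 CPM in cKO. All cKO libraries lay above all Ctrl libraries, and the log2 fold change was 0.87 (SE 0.24, 95% interval 0.36 to 1.39), with an adjusted p of 0.0527 in edgeR. It passed in DESeq2 (adjusted p = 0.0209) and, without cKO replicate 4 or Ctrl replicate 2, in edgeR (0.0294 and 0.0487). *Ccl6*, its neighbour and close relative, was 2.71 ± 0.399 CPM (SD, n = 4) in Ctrl and 2.93 ± 0.884 CPM in cKO (log2 fold change 0.12, 95% interval -0.35 to 0.60). Of 12 macrophage markers, all were tested and none passed in edgeR (2 at an unadjusted p under 0.05, 0 in DESeq2). Their median log2 fold change was -0.02, and their summed levels were 151 to 231 CPM in Ctrl and 158 to 207 CPM in cKO. *Pf4* is a product of platelets and megakaryocytes and also of tissue macrophages. Of 8 platelet and megakaryocyte markers 3 were tested and 1, *Itga2b*, was higher, where 2.62% of all genes tested were. The summed levels of 10.0 to 13.3 CPM in Ctrl and 13.1 to 20.3 CPM in cKO barely overlapped.

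The monocyte-attracting ligands of the *Ccl2* group showed no difference that passed the test. *Ccl2* (MCP-1) was 0.756 ± 0.241 CPM (SD, n = 4) in Ctrl and 0.705 ± 0.123 CPM in cKO, and *Ccl7* 0.733 ± 0.249 and 0.756 ± 0.268 CPM. Their 95% intervals were -0.72 to 0.52 and -0.66 to 0.75 on the log2 scale, so changes well under 2-fold could not be seen. *Ccl12* was 2.49, 4.49, 1.28 and 1.70 CPM in Ctrl and 1.75, 1.20, 1.76 and 1.58 CPM in cKO, and *Ccl8* 0.789, 2.05, 0.178 and 0.165 CPM in Ctrl and 0.544, 0.335, 0.0616 and 0.105 CPM in cKO. Ctrl replicate 2 was the highest library for both, and the groups overlapped. The log2 fold change of *Ccl8* was -1.59, with an SE of 0.89 and an adjusted p of 0.341, and it ranged from -2.18 (without cKO replicate 1) to -0.57 (without Ctrl replicate 2) when 1 library was left out. Ctrl replicate 2 was also the Ctrl library with the highest macrophage sum, 231 CPM.

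The eotaxins, which draw eosinophils through *Ccr3*, were represented by *Ccl11* and *Ccl24*. *Ccl11* was 6.19 ± 1.38 CPM (SD, n = 4) in Ctrl and 5.54 ± 0.452 CPM in cKO (log2 fold change -0.16, 95% interval -0.50 to 0.18). *Ccl24* was 0.379, 0.116, 0.464 and 0.412 CPM in Ctrl and 0.505, 0.870, 0.524 and 0.806 CPM in cKO. The groups did not overlap, but with 3 to 26 reads per library the log2 fold change of 0.95 (SE 0.37) missed the threshold (adjusted p = 0.163 by edgeR). Only 1 of 5 eosinophil markers passed the filter, and *Ccr3* did not. Of the ligands of *Ccr4* and *Ccr6*, *Ccl22* was 0.257 and 0.254 CPM (log2 fold change 0.04, 95% interval -0.95 to 1.02), *Ccl17* had at most 9 reads in any library, and *Ccl20* had 1 read in all 8 libraries together.

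The ligands with over 10 CPM in Ctrl were *Cxcl12*, *Cxcl14*, *Cx3cl1* and *Cxcl16*, and none of these 4 passed the test. *Cxcl12* held 55.3% to 62.9% of the summed ligand CPM of a library. It was 220, 249, 189 and 190 CPM in Ctrl and 252, 244, 213 and 170 CPM in cKO, a log2 fold change of 0.05 with a 95% interval of -0.23 to 0.33. The lowest value was that of cKO replicate 4, and the groups overlapped throughout. Other homeostatic ligands were sparse. *Cxcl13*, which draws B cells through *Cxcr5*, was 0.789, 0.271, 0.499 and 0.851 CPM in Ctrl and 1.01, 1.07, 1.11 and 0.911 CPM in cKO. The groups were apart, but its log2 fold change of 0.73 had an adjusted p of 0.196 (edgeR). *Ccl25*, known from thymus and gut, was 1.15 and 1.22 CPM, and *Ccl19*, a ligand of *Ccr7*, was listed at 0 in all libraries. *Ccl19* and *Ccl27a* have near-identical copies in the mouse genome that can take their reads, so their counts are uncertain.

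*Cxcl14*, an epithelial and stromal ligand, was 48.6 ± 5.36 CPM (SD, n = 4) in Ctrl and 47.4 ± 6.16 CPM in cKO, with a log2 95% interval of -0.25 to 0.18. *Cxcl17*, a mucosal ligand, was 2.83 ± 0.359 and 2.87 ± 0.740 CPM, and *Ccl28*, made by mucosal epithelia, 3.98 ± 0.899 and 4.99 ± 0.876 CPM (log2 fold change 0.33, adjusted p = 0.324). *Ccl27a* was 5.39 to 5.74 CPM in Ctrl and 6.16 to 6.86 CPM in cKO, without overlap, and its log2 fold change of 0.27 had an adjusted p of 0.174. Both membrane-anchored ligands were well covered. *Cx3cl1* (fractalkine) was 33.7 ± 2.40 and 38.9 ± 3.65 CPM (log2 fold change 0.20, adjusted p = 0.164), and *Cxcl16*, whose receptor *Cxcr6* marks T and NK cells, was 18.4 to 19.4 CPM in Ctrl and 16.6 to 17.5 CPM in cKO (-0.16, adjusted p = 0.214). The libraries of *Cxcl16* did not overlap although the difference was small.

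**Figure D4:**
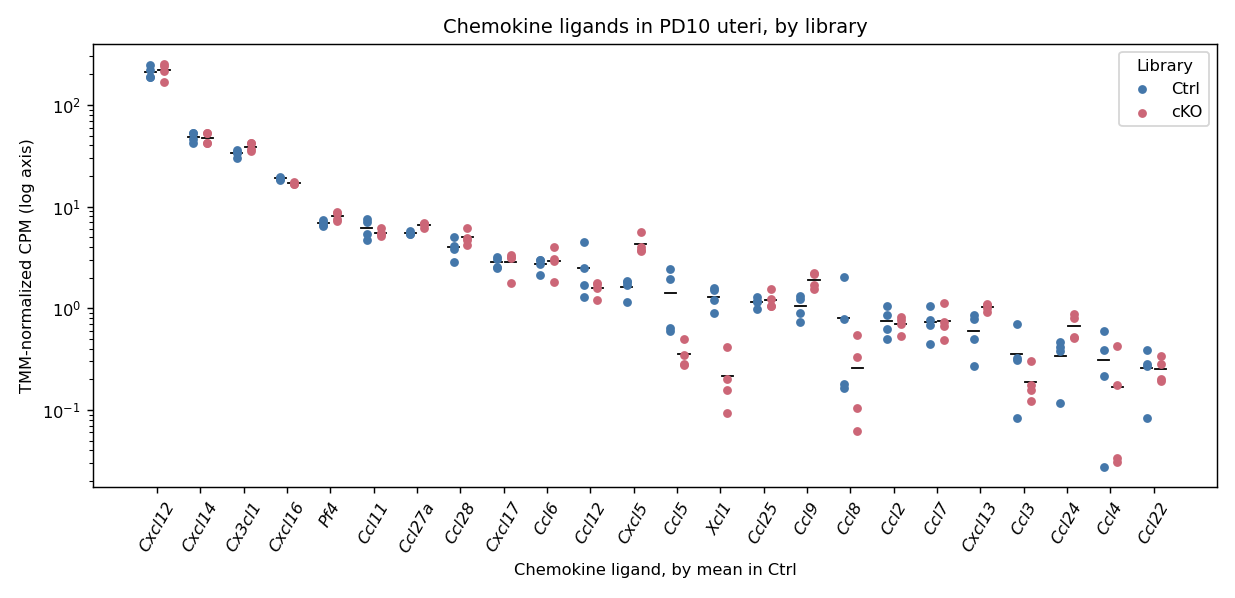
TMM-normalized CPM, on a log axis, of the 24 tested chemokine ligands in 4 Ctrl and 4 cKO libraries, ordered by their mean in Ctrl. Points are libraries and short bars are arithmetic means. Levels run from about 212 CPM in Ctrl for *Cxcl12* to 0.257 CPM for *Ccl22*, and the groups separate in *Cxcl5* and *Xcl1* but not in *Cxcl12* or *Cxcl14*.

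Levels of different genes were compared per kilobase of merged exons. On this scale *Cxcl14* at 26.6 ± 2.93 CPM per kb (SD, n = 4) and *Cxcl12* at 26.0 ± 3.50 stood first in Ctrl and did not differ beyond their spread. *Pf4* at 9.52 ± 0.649 and *Cx3cl1* at 8.58 ± 0.611 formed the next pair within their spread. *Cxcl16* at 6.27 ± 0.171, *Ccl11* at 5.72 ± 1.28, *Ccl12* at 4.64 ± 2.65 and *Cxcl17* at 3.72 ± 0.472 followed, and each overlapped its neighbour. *Xcl1* came after them at 2.48 ± 0.586 in Ctrl, and was 0.415 ± 0.272 CPM per kb in cKO. *Cxcl5* moved the other way, from 0.877 ± 0.175 to 2.29 ± 0.508 CPM per kb.

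Precision limited what could be seen. In 13 of the 24 tested ligands the 95% interval lay within a 2-fold change in either direction, and in 11 it reached beyond it. Fewer than 50 reads were counted in every library for 9 of the tested ligands. *Xcl1* passed the filter of 0.2 CPM, which was applied before scaling, in all 4 Ctrl and in 2 cKO libraries, and *Ccl3*, *Ccl4* and *Ccl8* passed it with exactly 4 libraries.

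On the receiving side, 19 of 23 chemokine receptor genes were tested. *Ccr1*, which binds *Ccl5*, *Ccl3* and *Ccl9* on myeloid cells, was lower and no receptor was higher in edgeR or DESeq2 (2 at an unadjusted p under 0.05 in edgeR), so that 5.26% passed, a share near the 5.34% of all genes. *Ccr1* was 7.85, 7.31, 5.60 and 5.24 CPM in Ctrl and 4.31, 4.38, 4.34 and 4.48 CPM in cKO. The cKO libraries lay close together and below all Ctrl libraries, and the log2 fold change was -0.57 (SE 0.15, adjusted p = 0.0430 by edgeR). This call was lost in limma-voom (adjusted p = 0.0676), with the fat marker score as a covariate (0.480) and in 6 of the 8 fits without 1 library, all but those without Ctrl replicate 4 or cKO replicate 4. Of the 19 tested receptors 15 had negative log2 fold changes, with a median of -0.27, and the summed receptor level was 155 to 190 CPM in Ctrl and 137 to 154 CPM in cKO.

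*Xcr1*, the receptor of *Xcl1*, was 0.536 ± 0.296 and 0.421 ± 0.131 CPM (SD, n = 4; log2 fold change -0.32, 95% interval -1.21 to 0.57), and of 6 dendritic cell markers, all tested, none passed in edgeR (2 at an unadjusted p under 0.05, 0 in DESeq2). *Cxcr3* at 1.12 and 0.542 CPM (-1.01, adjusted p = 0.112) and *Ackr3*, the atypical receptor that takes up *Cxcl12*, at 32.3 and 26.8 CPM without overlap (-0.27, adjusted p = 0.0660), were picked out after their values were seen.

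Genes that are known to induce chemokines were measured in the same libraries. Of 17 cytokine and signalling genes 11 were tested, none passed edgeR's threshold, and their log2 fold changes centred on -0.02. *Ptgs2*, the inducible cyclooxygenase, was the only one with an unadjusted p under 0.05 and was called in DESeq2 and in limma-voom. It was 18.1 ± 5.07 CPM (SD, n = 4) in Ctrl and 28.5 ± 2.24 CPM in cKO, without overlap (log2 fold change 0.65, adjusted p = 0.0542 in edgeR), and is named after its values were seen. *Il17a*, a strong inducer of *Cxcl5* in epithelia, was at 0 in all libraries, where 3 reads would be at most 0.116 CPM, and *Ifng*, which NK cells make, had too few reads to be tested. Mast cells, another chemokine source, gave a summed marker level of 36.3 to 45.9 CPM in Ctrl and 52.3 to 67.4 CPM in cKO without overlap, although none of the 5 tested markers passed in edgeR (3 at an unadjusted p under 0.05, 1 in DESeq2, 2 in limma-voom). The median log2 fold change of these 5 was 1.11. The part of mast cell, platelet and fat cell markers in the *Cxcl5* and *Ccl9* values was not tested.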

How the data were processed

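Per the labels, stranded mRNA libraries (TruSeq) of whole PD10 uteri were sequenced. The deposited files hold read counts per gene, 1 file per library, which the authors made with Trimmomatic, HISAT2 (GRCm38) and featureCounts. Tool versions and the strand setting of the counting are not given in the sources used here. A deposited table of the authors' own comparison was used only for pairing gene symbols with identifiers. Its log2 fold changes and p-values were not used. Counts were normalized by TMM and genes with a CPM over 0.2 in 4 libraries were fitted in edgeR 4.0.16 (quasi-likelihood, robust, prior count 0.125, Ctrl against cKO, no covariate), with Benjamini-Hochberg adjustment over 16658 genes. Single ligands were also tested by exact permutation over libraries. On simulated counts with 200 genes changed 4-fold among 16525, 200 were recovered with 9 false calls. The changed genes were drawn from those above a minimum mean read count, which *Xcl1* and *Ccl5* did not reach. Simulated libraries of a group varied alike, unlike the cKO libraries here. Recovery for ligands with few reads was therefore not tested. Counts of each pair of libraries differed by more than sampling noise (chi-square 7.80 to 31.8 per gene). Exon lengths, coding sequences and coordinates came from the GENCODE and RefSeq annotations of GRCm38. The 32 members and all gene lists were chosen with earlier results of these data known. All ligands are named, with receptors that passed or that bind a ligand that did, and up to 5 genes per marker list. Alternatives used limma 3.58.1 and DESeq2 1.42.0, other scalings and filters, a replicate block, a fat marker covariate and left-out libraries. Some members of the receptor and inducer lists are counted but not reported singly here.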

Additional observations from a re-analysis of the deposited data

Results flagged for a closer look

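Among 86 groups of 4 libraries examined for a library far from the other 3, 7 were found by Dixon's criterion, and chance alone flags about 1 in 20. *Cxcl5* in cKO replicate 3 was 5.67 CPM, against 3.69 to 3.98 CPM in the other cKO libraries, and without that library the gene was still higher. *Cxcl17* in cKO replicate 2 was 1.77 CPM, against 3.11 to 3.38 CPM. Of the receptors, *Ccr4* in cKO replicate 3 was 0.0924 CPM (others 0.233 to 0.245), *Ccr9* in cKO replicate 2 was 0.569 CPM (others 0.194 to 0.246) and *Cxcr2* in cKO replicate 2 was 0.770 CPM (others 0.455 to 0.493). *Cxcr4* in cKO replicate 1 was 66.6 CPM (others 56.1 to 57.3), and *Ccr10* in Ctrl replicate 3 was 1.25 CPM (others 0.851 to 0.915).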

How the results depend on the processing

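The main counts were 1 ligand higher, 2 lower, 0 receptors higher, 1 receptor lower and 889 genes in all. Ligands higher numbered 2, with *Ccl9* added, under upper-quartile scaling, DESeq2, the likelihood ratio test, no filter, a filter at CPM over 1 and the replicate block, and 1 to 2 when 1 library was left out. Ligands lower numbered 1 in limma-voom, 0 under the stricter filter, which removed *Xcl1* and *Ccl5* from the test, and 1 to 2 when 1 library was left out. Receptors lower numbered 3 in DESeq2, 4 by the likelihood ratio test, 2 with the block, 0 in limma-voom, 0 with a 2-fold threshold and 0 to 2 when 1 library was left out. All genes called numbered 1510 in DESeq2, 1512 by the likelihood ratio test, 217 with a 2-fold threshold and 425 (without Ctrl replicate 1) to 1783 (without cKO replicate 4) when 1 library was left out. With the fat score as a covariate no ligand or receptor passed (ligands 0 higher and 0 lower, receptors 0 lower, 109 genes in all), with log2 fold changes of -1.91 for *Xcl1*, -2.46 for *Ccl5* and 1.30 for *Cxcl5*. With cKO replicate 4 as the sole cKO library, added after seeing the data, ligands higher and lower and receptors lower were again 0, with 38 genes in all, and the lone library was assumed to vary like the rest. Both settings leave little to test genotype with, and the cause of the lost calls was not tested.

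Of the values of single ligands and receptors under the alternatives, 804 kept direction and side of the threshold, 16 came past it, 22 fell short of it and 42 changed sign. Signs turned for 14 uncalled genes. With the fat score they turned for *Ccl6* (-0.59), *Ccl7* (-0.52), *Ccl25* (-0.0058), *Cxcl12* (-0.33), *Ccr9* (-0.52), *Cxcr5* (-0.71) and *Ackr4* (0.050), and with cKO replicate 4 alone for *Ccl6* (-0.56), *Ccl7* (-0.56), *Cxcl12* (-0.32), *Ccr9* (-0.19), *Cxcr5* (-0.84) and *Ackr4* (0.093). *Cxcl17* turned in limma-voom (-0.0075) and *Ccr7* under upper-quartile scaling (0.0076). With 1 library left out the log2 fold change ranged across 0 for *Ccl2* (-0.24 to 0.076), *Ccl6* (-0.059 to 0.29), *Ccl7* (-0.19 to 0.25), *Ccl22* (-0.30 to 0.32), *Ccl25* (-0.055 to 0.14), *Cxcl12* (-0.017 to 0.16), *Cxcl14* (-0.094 to 0.020), *Cxcl17* (-0.059 to 0.20), *Ccr4* (-0.88 to 0.18), *Ccr7* (-0.31 to 0.17), *Ccr9* (-0.13 to 0.51) and *Xcr1* (-0.51 to 0.052). The cause was not tested. Library numbers did not pair the samples (correlations of same-numbered deviations -0.00026 to 0.19, with 1 of 4 Ctrl libraries closest to its own number), and the replicate block left *Xcl1*, *Ccl5*, *Cxcl5* and *Ccr1* past the threshold. Depth limits *Cxcl1*, *Cxcl2*, *Cxcl3*, *Cxcl11*, *Ccl17*, *Ccl20* and *Ppbp*, which had at most 16 reads in any library.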
